A study of Homo sapiens with 6 samples.

Results

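The genes described here are 10 amino acid transporters of the solute carrier (SLC) families, chosen by symbol: SLC7A1, SLC7A2, SLC7A5, SLC7A6, SLC3A2, SLC1A4, SLC1A5, SLC38A1, SLC38A2 and SLC6A14. All 10 were among the 26255 gene symbols measured, and all 10 were among the 12040 that averaged 1 FPKM or more and were tested, although SLC1A4 passed that limit only at 1.03 FPKM. FPKM counts the fragments of a gene for its exon length and for the size of the library. A comparison of FPKM between libraries also depends on how the libraries were scaled. The RNA came from BxPC-3, a long-established line of human pancreatic cancer cells, and was sequenced as 2 libraries in each of 3 groups. Parent cells received no treatment, NC-1 cells were transfected with a negative control RNA, and miR-4711-5p cells were transfected with the microRNA duplex, with RNA taken at 36 h in the transfected cells. The groups share the cell line, and Parent differs from the others by the transfection as well as by the RNA. The study lists more than 1 negative control RNA, and which of them the label NC-1 stands for is not given in the sources used here. The labels do not say that the libraries of a group came from separate cultures, so the p-values measure only the spread between these libraries, which may be technical.

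Amino acids enter cells through membrane transporters, since charged and polar molecules do not cross the lipid bilayer by themselves. SLC7A1 and SLC7A2 carry the cationic amino acids arginine, lysine and ornithine. SLC7A5 and SLC7A6 are light chains that must pair with the heavy chain SLC3A2 to reach the cell surface, and they exchange large neutral or cationic amino acids for those inside the cell. SLC1A4 and SLC1A5 exchange small neutral amino acids and glutamine, SLC38A1 and SLC38A2 take up glutamine and other small neutral amino acids with sodium, and SLC6A14 concentrates neutral and cationic amino acids with sodium and chloride. Tumour cells, pancreatic ones among them, commonly express several of these genes at high levels. A microRNA binds mRNAs mainly through its seed, the bases near its 5′ end, and usually lowers the level of mRNAs whose 3′ untranslated region (3′ UTR) pairs with the seed.

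The microRNA and its matches in the 3′ UTRs of these transporters are shown because some members hold such a match and others do not. The mature sequence is from RefSeq (GRCh38.p14), with the seed, bases 2 to 8, in capitals. The other stretches are 30 bases of the mRNA strand, read from the GENCODE transcripts on GRCh37, the build that the study names as hg19, and their capitals mark the match to the seed. An 8mer (CTGATGCA) pairs with bases 2 to 8 and is followed by A, a 7mer-m8 (CTGATGC) lacks that A, and a 7mer-A1 (TGATGCA) pairs with bases 2 to 7 and is followed by A.
miR-4711-5p: uGCAUCAGgccagaagacaugag
SLC7A1, 8mer, chr13:30084707-30084714: tatatgtggaaCTGATGCAgagttcgcctg
SLC7A1, 7mer-m8, chr13:30083788-30083794: agatttagattCTGATGCtaactgcaaatc
SLC7A5, 7mer-m8, chr16:87865515-87865521: ctgtcctggtcCTGATGCccgttgtctagg
SLC38A1, 8mer, chr12:46581874-46581881: aaaatactcctCTGATGCAtttagccttca
SLC38A2, 7mer-m8, chr12:46754856-46754862: actcagtccatCTGATGCcagtgttgagta
SLC1A4, 7mer-A1, chr2:65249504-65249510: tttgtggctgtTGATGCAtattcgtgatgt

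Of the members, 5 thus had a match in a 3′ UTR and 5 had none in any annotated 3′ UTR (SLC7A2, SLC7A6, SLC3A2, SLC1A5 and SLC6A14). SLC7A1 was the member with 2 matches, at positions 3903 and 4823 of a 3′ UTR of 5066 nt. The match of SLC38A2 lay 32 nt after the stop codon, that of SLC38A1 at position 872 of 5907 nt, that of SLC7A5 at 1055 of 2947 nt and that of SLC1A4 at 1224 of 2719 nt. Outside the 3′ UTR, SLC7A1, SLC38A1, SLC3A2 and SLC6A14 had a match in the coding sequence, and SLC38A1 had an 8mer in its 5′ UTR. Of the 11174 genes tested that had an annotated 3′ UTR, 18.4% had a match in the longest one. Long 3′ UTRs hold more: among the 990 genes whose longest 3′ UTR was within 20% of the length of that of SLC7A1, 38.7% had a match and 9.8% had 2 or more. The matches in the 3′ UTR were held by 1 of 2 annotated coding transcripts of SLC7A1 and 1 of 2 of SLC1A4. They were held by 3 of 7 of SLC38A1, 2 of 3 of SLC38A2 and 2 of 2 of SLC7A5. FPKM per gene do not show which of these transcripts the cells made. A match is a stretch of letters and was not tested as a binding site here.

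**Figure D1:**
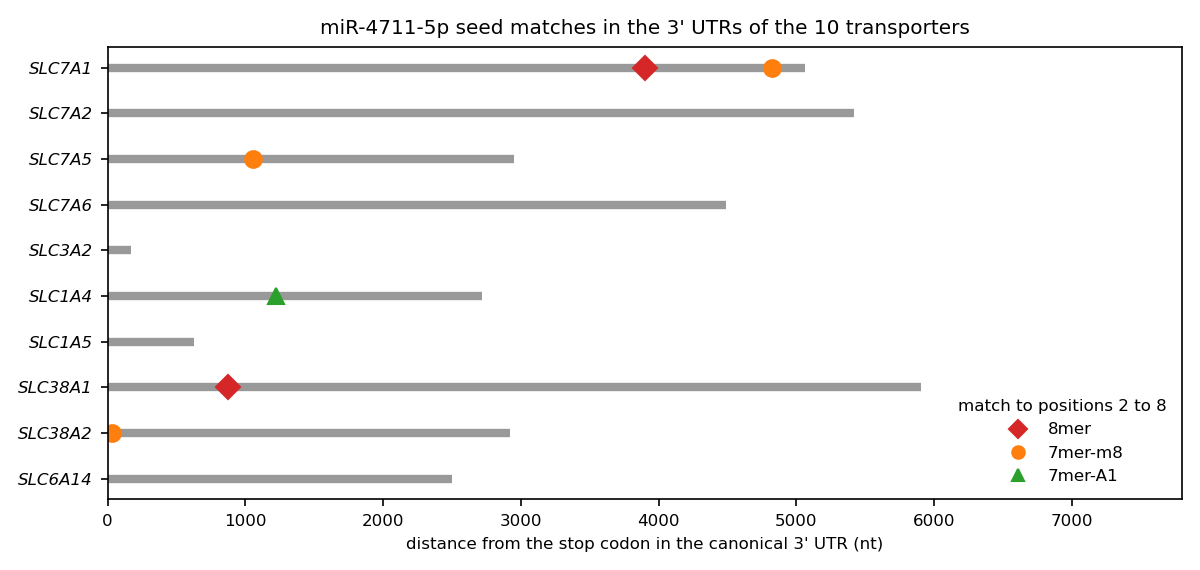
The horizontal axis is the distance from the stop codon in nt, each grey bar is the canonical 3′ UTR of a member, and symbols mark 8mer, 7mer-m8 and 7mer-A1 matches to the miR-4711-5p seed. The matches of SLC7A1 lie near the far end of a 3′ UTR of 5066 nt, and that of SLC38A2 lies 32 nt after the stop codon.

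In all 6 libraries the cells had the keratins of pancreatic ductal epithelium, with KRT7, KRT8, KRT18 and KRT19 between 890 and 1840 FPKM, and SMAD4 and CDKN2A, which are deleted in BxPC-3, were at 0. Some ductal genes differed between Parent, NC-1 and miR-4711-5p. In that order the means were 1630, 1270 and 901 FPKM for KRT19, 115, 110 and 29.6 for CDH1, 30.4, 24.4 and 15.1 for MUC1, and 6.48, 7.7 and 14.2 for SOX9. EPCAM had means of 101, 91.9 and 109. Of the markers of other cells, the 6 blood cell genes and the 4 endocrine genes were all under 1 FPKM in every library. Of 6 acinar, 5 fibroblast and 4 endothelial genes only PRSS1, COL1A1 and CDH5 passed 1 FPKM in any library, with highest values of 5.1, 2.35 and 3.16. CDH5 moved with the groups, at 0.929 to 0.995 FPKM in Parent, 2.88 to 3.16 in NC-1 and 0.469 to 0.612 with miR-4711-5p, and so did PRSS1, with means of 1.13, 2.68 and 4.14. The part of such genes in the results below was not tested. The FPKM of a library summed to 543074 and 550772 in Parent, 515348 and 515688 in NC-1, and 493145 and 499659 with miR-4711-5p, and the steps between the lowest values put the depths of the libraries at 0.751 to 1.21 times that of Parent 1.

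By level in Parent cells the members spanned from SLC1A5, with a mean of 202 FPKM, down to SLC1A4, with 1.22 FPKM. SLC1A5, SLC3A2, SLC38A2, SLC7A5 and SLC38A1 were in the upper part of all genes tested, between the percentiles 88.6 and 96.8. SLC7A1 was at percentile 66.1 and SLC7A6 at 55.4, and SLC6A14, SLC7A2 and SLC1A4 were at 21.7 or lower. In that order only SLC3A2 and SLC38A2 had overlapping libraries as neighbours. With miR-4711-5p the order changed in 3 places: SLC7A1 fell below SLC7A6, SLC7A5 came to the level of SLC38A1, whose libraries it overlapped, and SLC38A2 stood above SLC3A2. The last of these was also seen in NC-1, where SLC38A2 was the highest member with 177 FPKM and SLC3A2 had 164 FPKM. SLC7A1 and SLC7A5 kept their Parent places in NC-1. The 10 genes together made up 0.135% of the summed FPKM in both Parent libraries, 0.135% and 0.138% in NC-1, and 0.124% and 0.121% with miR-4711-5p.

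**Figure D2:**
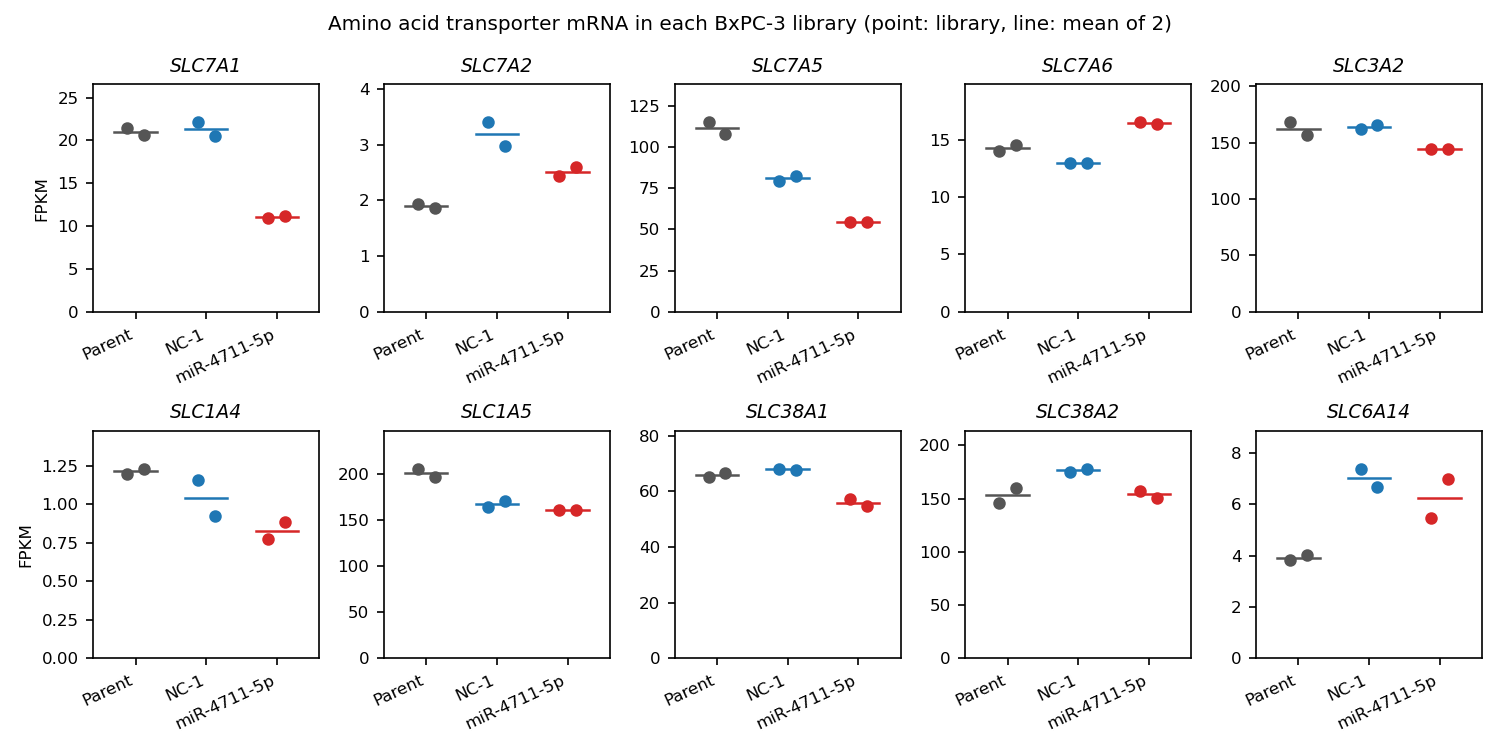
Each panel gives the FPKM (vertical axis, from 0) of a member in the 6 libraries, with a point per library and a line at the mean of 2. SLC7A1 is lower only in the miR-4711-5p libraries, SLC7A5 is lower in NC-1 and lower still with miR-4711-5p, and SLC1A5 is lower in both transfected groups.

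The comparison of miR-4711-5p with Parent and with NC-1 asks which transporter mRNAs differ with the microRNA, and the comparison of NC-1 with Parent asks what the control transfection does. All genes were tested with limma, a linear model that shares the spread across genes, on log2(FPKM + 1), two-sided and with Benjamini-Hochberg adjustment over the 12040 genes at 0.05. Fold changes on this scale understate those of genes at low FPKM. By the adjusted p, 5 members were lower and 2 higher in miR-4711-5p cells than in Parent, where 43.4% of all genes were called, 24.7% lower and 18.7% higher. Against NC-1, 5 members were lower and 1 higher, where 39.6% of all genes were called, 21.2% lower and 18.4% higher. NC-1 itself had 3 members higher and 2 lower than Parent, where 27.2% of all genes were called, 12.1% higher and 15.1% lower. The median log2 fold change of the 10 members was -0.20 against Parent and -0.19 against NC-1, and over all genes it was -0.01 and 0.00. SLC7A1 is among the genes that the study selected for both a decrease in these same libraries and a seed match, so its fall, and the pairing of its fall with its matches, are given as a description. Without it, 4 of 9 members were lower and 2 higher against Parent, and 4 lower and 1 higher against NC-1. SLC7A5, which stays in these counts, also met the study's limits on decrease and level and has a match. By their libraries alone, 9 members did not overlap between miR-4711-5p and Parent, 6 lower and 3 higher, where 74.2% of all genes did not, 39.3% lower and 35.0% higher. Against NC-1 the same held for 9 members, 8 lower and 1 higher (72.4% of all genes, 36.2% in each direction), and between NC-1 and Parent for 8 members, 4 in each direction (65.5% of all genes, 34.2% lower and 31.3% higher).

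SLC7A1, SLC7A5, SLC3A2 and SLC38A1 were lower with miR-4711-5p against both controls, where 15.4% of all genes were, and SLC7A6 alone was higher against both, where 10% of all genes were. The split against Parent depended on the scale of the libraries. As an alternative added after the sums were seen, every library was set to the same FPKM sum. The median of all genes against Parent then moved from -0.01 to 0.11, and 3 members were lower and 3 higher. Of all genes tested, 4014 were then higher and 1775 lower in place of 2255 and 2975. Against NC-1 this setting left 4 members lower and 1 higher, with SLC38A2 no longer past the threshold. There the median of all genes was 0.05, and 2925 genes were higher and 2083 lower in place of 2214 and 2549. With 2 libraries a side the smallest p that exact permutation allows is 0.333, so the calls of these transporters depend on the variance pooled over genes by limma.

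**Figure D3:**
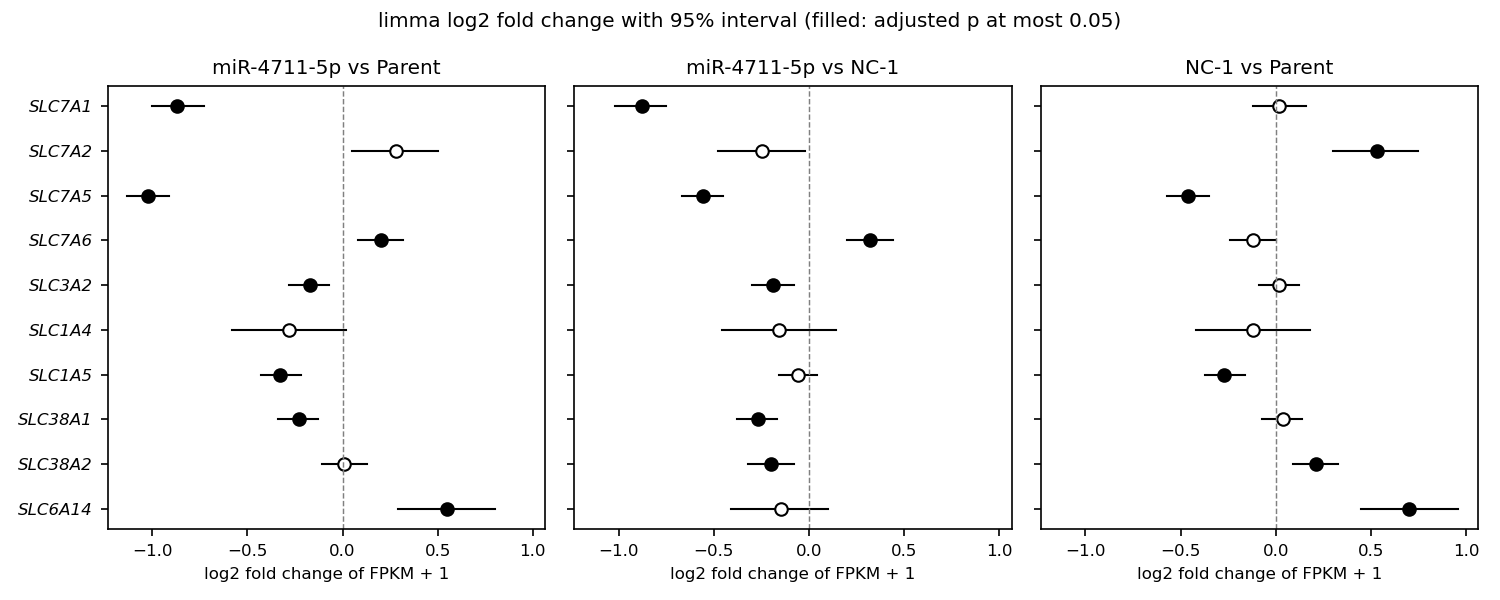
The horizontal axis is the limma log2 fold change on log2(FPKM + 1) with its 95% interval, for each member (rows) in each comparison (panels), and filled points have an adjusted p of at most 0.05. SLC7A1 lies at -0.87 and -0.88 in the miR-4711-5p panels and at 0.02 between NC-1 and Parent.

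Among the carriers of cationic amino acids, SLC7A1 had 21.4 and 20.6 FPKM in Parent, 22.1 and 20.5 in NC-1, and 10.9 and 11.2 with miR-4711-5p. Both miR-4711-5p libraries lay far below the other 4, and the Parent libraries lay within the range of NC-1. The ratio of mean FPKM was 0.527 against Parent and 0.520 against NC-1. On the log2 scale SLC7A1 differed by -0.87 from Parent (standard error 0.06, 95% interval -1.0 to -0.73) and by -0.88 from NC-1 (standard error 0.06, 95% interval -1.02 to -0.75), so the choice of control made little difference. Over the 14 settings tried, these values ran from -0.92 to -0.73 and from -0.94 to -0.83. NC-1 differed from Parent by 0.02 (95% interval -0.12 to 0.16, limma adjusted p = 0.833). By size of decrease among the 12040 genes, SLC7A1 was in place 253 against Parent and 263 against NC-1.

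SLC7A2, the related carrier that is induced by inflammatory signals in many cells, was an order of magnitude lower in Parent, with 1.94 and 1.86 FPKM. It had 3.40 and 2.97 FPKM in NC-1 and 2.43 and 2.6 with miR-4711-5p. The 3 groups did not overlap, with NC-1 highest and Parent lowest. SLC7A2 was higher in NC-1 than in Parent by 0.53 (standard error 0.10, limma adjusted p = 0.00897). With miR-4711-5p it differed by 0.28 from Parent (95% interval 0.05 to 0.50, limma adjusted p = 0.0515) and by -0.25 from NC-1 (95% interval -0.48 to -0.02, limma adjusted p = 0.0771), and neither passed the threshold. Both lay close to it. The difference of SLC7A2 from Parent passed with a pseudocount of 0.1 (limma adjusted p = 0.0448), equal FPKM sums (0.0162), a fit of these 2 groups alone (0.044), no variance trend (0.0225) or without the library NC-1 1 (0.0496), and that from NC-1 passed with no variance trend (0.0347). Within a library, SLC7A1 had 11.0 and 11.1 times the FPKM of SLC7A2 in Parent, 6.49 and 6.89 times in NC-1, and 4.48 and 4.31 times with miR-4711-5p.

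SLC7A5, the light chain that imports leucine and other large neutral amino acids, had the largest log2 decrease of the members against Parent. It had 115 and 108 FPKM in Parent, 79.5 and 82.4 in NC-1, and 54.6 and 54.7 with miR-4711-5p. The 3 groups stood apart, in falling order from Parent to NC-1 to miR-4711-5p. The log2 difference was -1.02 from Parent (standard error 0.05, limma adjusted p = 1.04e-05) and -0.56 from NC-1 (standard error 0.05, limma adjusted p = 0.000166). NC-1 was itself lower than Parent by -0.46 (standard error 0.05, limma adjusted p = 0.00154). For SLC7A1 the same comparison had a 95% interval of -0.12 to 0.16. SLC7A5 was called in each of the 14 settings in all 3 comparisons.

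SLC7A6, a light chain that exchanges cationic for neutral amino acids, had 14.0 and 14.5 FPKM in Parent, 13.0 and 13.0 in NC-1, and 16.5 and 16.4 with miR-4711-5p. Both miR-4711-5p libraries lay above all others. The gene was higher by 0.20 against Parent (standard error 0.05, limma adjusted p = 0.0176) and by 0.32 against NC-1 (standard error 0.05, limma adjusted p = 0.00256). The call against Parent was lost without Parent 1 (limma adjusted p = 0.0727), miR-4711-5p 1 (limma adjusted p = 0.0987) or miR-4711-5p 2 (limma adjusted p = 0.0763). NC-1 and Parent differed by -0.12 without passing the threshold (limma adjusted p = 0.113).

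SLC3A2, the heavy chain that brings SLC7A5, SLC7A6 and SLC7A11 to the membrane, had 168 and 157 FPKM in Parent, 162 and 166 in NC-1, and 144 and 144 with miR-4711-5p. Its miR-4711-5p libraries lay below the other 4, and Parent and NC-1 overlapped. The change was small, -0.17 against Parent (standard error 0.05, limma adjusted p = 0.0194) and -0.19 against NC-1 (standard error 0.05, limma adjusted p = 0.0150). With equal FPKM sums the value against Parent was -0.03 (limma adjusted p = 0.531). The call against Parent was also lost without Parent 1 (limma adjusted p = 0.0910), miR-4711-5p 1 (0.0921) or miR-4711-5p 2 (0.0906), and that against NC-1 without NC-1 2 (0.0635), miR-4711-5p 1 (0.0770) or miR-4711-5p 2 (0.0801).

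Ratios within a library do not depend on the scale of the library, so they set the light chains against their partner. SLC7A5 had 0.686 and 0.688 times the FPKM of SLC3A2 in Parent, 0.489 and 0.495 in NC-1, and 0.379 and 0.380 with miR-4711-5p. The ratio of SLC7A6 to SLC3A2 was highest with miR-4711-5p, with 0.0833 and 0.0920 in Parent, 0.0801 and 0.0779 in NC-1, and 0.115 and 0.114 with miR-4711-5p. For both ratios the miR-4711-5p libraries stood apart from the other 4. As a result, SLC7A6 had 0.128 ± 0.00853 times the FPKM of SLC7A5 in Parent (SD, n = 2), 0.161 ± 0.00444 in NC-1 and 0.301 ± 0.00248 with miR-4711-5p. These ratios are of mRNA and not of protein.

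**Figure D4:**
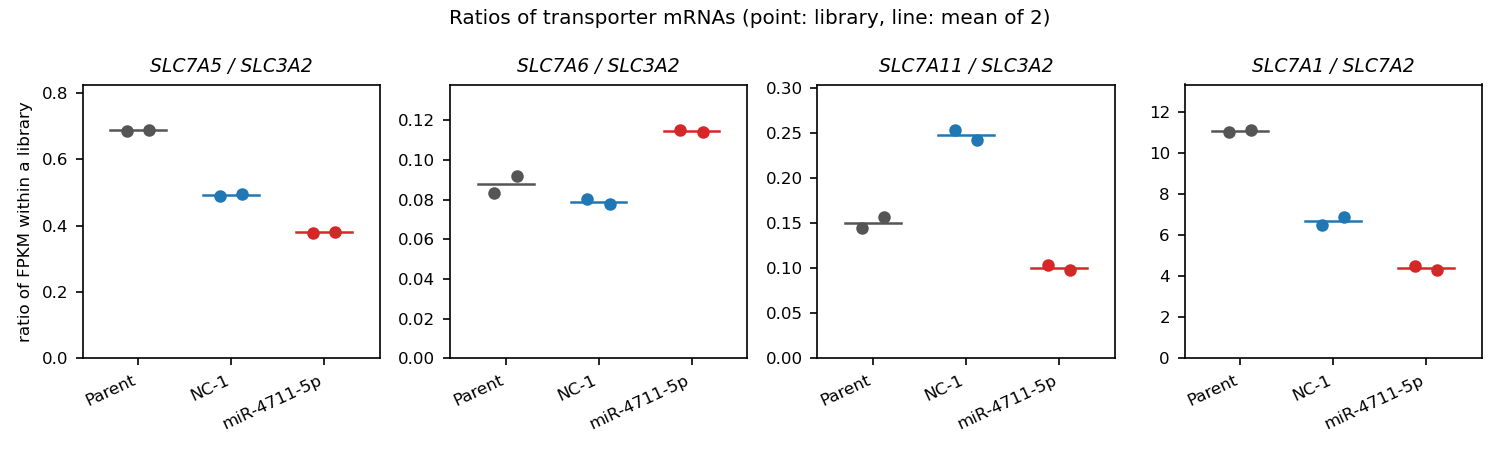
The vertical axes, from 0, are ratios of FPKM between a pair of genes within a library, with a point per library and a line at the mean of 2. SLC7A5 to SLC3A2 falls from 0.687 in Parent to 0.492 in NC-1 and 0.379 with miR-4711-5p, while SLC7A6 to SLC3A2 is highest with miR-4711-5p (0.114).

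Of the exchangers of small neutral amino acids, SLC1A5, the main glutamine exchanger of many tumour cells, was the member with the highest level. It had 206 and 197 FPKM in Parent, 165 and 171 in NC-1, and 161 and 161 with miR-4711-5p. Both transfected groups lay below Parent and close to each other. SLC1A5 was lower than in Parent by -0.33 with miR-4711-5p (standard error 0.04, limma adjusted p = 0.00102) and by -0.27 in NC-1 (standard error 0.04, limma adjusted p = 0.00616). Between miR-4711-5p and NC-1 the difference was -0.06, with a 95% interval of -0.16 to 0.04 (limma adjusted p = 0.304). SLC1A4, which carries alanine, serine and cysteine, had 1.2 and 1.23 FPKM in Parent, 1.16 and 0.924 in NC-1, and 0.775 and 0.883 with miR-4711-5p. Its miR-4711-5p libraries were the lowest, but the differences did not pass the threshold at this level. They were -0.28 from Parent (95% interval -0.58 to 0.02, limma adjusted p = 0.119) and -0.16 from NC-1 (limma adjusted p = 0.356). The difference of SLC1A4 from Parent passed with no variance trend (limma adjusted p = 0.028).

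SLC38A1, a sodium-coupled carrier of glutamine, had 65.3 and 66.8 FPKM in Parent, 68.1 and 67.7 in NC-1, and 57.4 and 54.6 with miR-4711-5p, with the miR-4711-5p libraries below the other 4. It was lower by -0.23 against Parent (standard error 0.04, limma adjusted p = 0.00531) and by -0.27 against NC-1 (standard error 0.04, limma adjusted p = 0.00304). With equal FPKM sums the value against Parent was -0.10 and no longer passed (limma adjusted p = 0.135), and that against NC-1 was -0.22 and did (limma adjusted p = 0.01).

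SLC38A2, which cells raise when amino acids are scarce, had 146 and 160 FPKM in Parent, 175 and 178 in NC-1, and 157 and 151 with miR-4711-5p. NC-1 lay above both other groups, and miR-4711-5p overlapped Parent. In NC-1 the gene exceeded Parent by 0.21 (standard error 0.05, limma adjusted p = 0.0263), and miR-4711-5p differed from NC-1 by -0.20 (standard error 0.05, limma adjusted p = 0.0210). Against Parent it differed by 0.01 (95% interval -0.11 to 0.13, limma adjusted p = 0.898). The rise in NC-1 was past the threshold in 6 of 14 settings and the fall against NC-1 in 8 of 14. The rise was lost without any 1 of 5 libraries (limma adjusted p from 0.0510 to 0.113), Parent 2 being the exception. The fall against NC-1 was lost without NC-1 1 (limma adjusted p = 0.0581), NC-1 2 (0.0819), miR-4711-5p 1 (0.0644) or miR-4711-5p 2 (0.123).

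SLC6A14, a carrier with a broad range of substrates that is upregulated in several epithelial cancers, had 3.83 and 4.01 FPKM in Parent, 7.38 and 6.66 in NC-1, and 5.48 and 6.99 with miR-4711-5p. All 4 transfected libraries lay above Parent, and the transfected groups overlapped. It was higher than in Parent by 0.70 in NC-1 (standard error 0.11, limma adjusted p = 0.00518) and by 0.55 with miR-4711-5p (standard error 0.11, limma adjusted p = 0.00599). Between miR-4711-5p and NC-1 the difference was -0.15 (95% interval -0.41 to 0.10, limma adjusted p = 0.293). The comparisons share libraries, so these values are not independent of each other.

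Set beside the sequences above, the 5 members with a seed match in the 3′ UTR had log2 differences from NC-1 of -0.88 (SLC7A1), -0.56 (SLC7A5), -0.27 (SLC38A1), -0.20 (SLC38A2) and -0.16 (SLC1A4), and the first 4 were called. The 5 members without one lay between -0.25 and 0.32, with 1 called lower (SLC3A2) and 1 higher (SLC7A6). Among all genes tested, 36.5% of those with a match in the longest 3′ UTR and 18.9% of those without were lower against NC-1. Against Parent, 3 of the 5 members with a match were lower and none was higher, and 2 of the 5 without were lower and 2 higher, where 35.1% of all genes with a match and 23.9% of those without were lower. Higher against Parent were 14.7% of all genes with a match and 19.7% of those without, and against NC-1 11.2% and 20.6%. Genes with a match also differed between the controls, where no microRNA was given. Lower in NC-1 than in Parent were 10.2% of genes with a match and 17.1% of those without, and higher were 16.1% and 11.5%. The shares were not matched for the length of the 3′ UTR, and the part of length was not tested. SLC7A1 has to be set aside here, since the study selected it for its decrease together with a match. SLC7A5, 2.04-fold lower than in Parent and at 112 FPKM there, also met the study's limits on decrease and level. Whether the study listed SLC7A5 is not shown, and its fall with a match is likewise only a description. Of the 4 members with a match besides SLC7A1, SLC7A5 and SLC38A1 were lower against both controls, SLC38A2 was lower against NC-1 alone and SLC1A4 was not called. SLC38A1, with an 8mer, had -0.23 and -0.27 against Parent and NC-1, and SLC7A5, with a 7mer-m8, had -1.02 and -0.56.

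Of 26 other listed transporters of the plasma membrane, 16 had a mean under 1 FPKM, beside 54.1% of all symbols, and were not tested. Of the 10 tested, 2 rose and 4 fell with miR-4711-5p against Parent, while 3 rose and 2 fell against NC-1. Of all genes, 43.4% and 39.6% were called. By direction, 18.7% were higher and 24.7% lower against Parent, and 18.4% higher and 21.2% lower against NC-1. With 10 genes the counts of this list are small. SLC7A11, the light chain that exchanges cystine for glutamate and also pairs with SLC3A2, went from 24.4 ± 0.429 FPKM in Parent (SD, n = 2) and 40.7 ± 0.595 in NC-1 to 14.5 ± 0.552 with miR-4711-5p. The log2 difference was -0.71 from Parent (limma adjusted p = 5.88e-05) and -1.43 from NC-1 (limma adjusted p = 5.74e-06), and NC-1 was higher than Parent by 0.71 (limma adjusted p = 0.000432). The SDs of its ratio to SLC3A2 (n = 2 each) were small beside the differences, with 0.15 ± 0.00965 in Parent, 0.248 ± 0.00784 in NC-1 and 0.101 ± 0.00365 under miR-4711-5p. SLC7A8, another partner of SLC3A2, was lower than in Parent by -0.61 and than in NC-1 by -0.40 (limma adjusted p = 0.00865 and 0.0465), the latter past the threshold in only 5 of 14 settings. Against Parent SLC7A8 lost the call without Parent 1 (limma adjusted p = 0.0518) or miR-4711-5p 1 (0.0509), and against NC-1 without either Parent library (0.0757 and 0.0759), NC-1 1 (0.0533), NC-1 2 (0.202) or miR-4711-5p 1 (0.234).

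The glutamate and aspartate carriers SLC1A1 and SLC1A3 moved in the opposite direction. SLC1A3 had 18.7 ± 0.739 FPKM in Parent, 16.1 ± 1.12 in NC-1 and 25.2 ± 0.0858 in miR-4711-5p cells (SD, n = 2 each), a rise of 0.42 against Parent and 0.62 against NC-1 (limma adjusted p = 0.00176 and 0.000336). SLC1A1 was near 1 FPKM in Parent, with 1.01 ± 0.147, and had 2.64 ± 0.0880 with miR-4711-5p, a rise of 0.86 (limma adjusted p = 0.00162). The lysosomal transporters had no member lower against either control, with 4 of 8 tested genes higher than in Parent and 3 higher than in NC-1, where 18.7% and 18.4% of all genes were higher and 24.7% and 21.2% lower. With 8 genes these counts are small. SLC15A3, a lysosomal peptide and histidine carrier, was 2.52-fold higher than in Parent and 2.05-fold higher than in NC-1 in mean FPKM (limma adjusted p = 2.57e-05 and 8.89e-05). SLC15A4, its relative, rose by 0.23 and 0.25 (limma adjusted p = 0.0261 and 0.0217), and passed in 10 of 14 settings in each comparison. The call of SLC15A4 against Parent was lost without Parent 1 (limma adjusted p = 0.059), Parent 2 (0.11) or miR-4711-5p 1 (0.17), and that against NC-1 without NC-1 1 (0.0789), NC-1 2 (0.0774) or miR-4711-5p 1 (0.142).

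Genes that ATF4 drives when amino acids run short moved in both directions. Of 14 tested, 3 rose and 6 fell against Parent (18.7% and 24.7% of all genes), while 4 rose and 5 fell against NC-1 (18.4% and 21.2% of all genes). ATF4 mRNA itself differed by 0.01 from Parent (limma adjusted p = 0.856) and by 0.07 from NC-1 (limma adjusted p = 0.264). TRIB3, an inhibitory pseudokinase, fell by 0.70 and 0.95 on the log2 scale against Parent and NC-1 (limma adjusted p = 9.31e-05 and 2.83e-05), DDIT4, an inhibitor of mTORC1, fell by 0.68 and 0.64 (limma adjusted p = 8.16e-05 and 0.000132), and PHGDH, the first enzyme of serine synthesis, fell by 0.63 and 0.42 (limma adjusted p = 0.000177 and 0.00123). The transcription factor ATF3 rose 2.90-fold and 2.44-fold in mean FPKM (limma adjusted p = 0.000122 and 0.000286), and VLDLR and DDIT3 rose by 0.82 and 0.23 on the log2 scale against Parent (limma adjusted p = 0.000776 and 0.0209) and by 0.52 and 0.27 against NC-1 (limma adjusted p = 0.006 and 0.0138). DDIT3 lost the call against Parent without Parent 2 (limma adjusted p = 0.101), miR-4711-5p 1 (0.135) or miR-4711-5p 2 (0.0511), and against NC-1 without NC-1 1 (0.0734) or miR-4711-5p 1 (0.0969), and VLDLR lost it against NC-1 without miR-4711-5p 1 (0.0507).

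Arginine brought in by SLC7A1 feeds the synthesis of ornithine and polyamines. Of 14 tested genes of arginine and polyamine metabolism, 8 were lower and 1 higher than in Parent, where 24.7% of all genes were lower and 18.7% higher. Against NC-1, 5 were lower and 3 higher, where 21.2% of all genes were lower and 18.4% higher. NC-1 itself had 5 of these genes lower and 1 higher than Parent, where 15.1% of all genes were lower and 12.1% higher. The counts of this list were not recomputed with equal FPKM sums. ASS1, which makes the precursor of arginine from citrulline, had 36.5 ± 2.98 FPKM in Parent, 38.2 ± 0.16 in NC-1 and 20.9 ± 0.883 in miR-4711-5p cells (SD, n = 2 each), a log2 difference of -0.78 and -0.84 (limma adjusted p = 0.000132 and 0.000106). ODC1, the first enzyme of polyamine synthesis, was lower by -0.40 and -0.32 (limma adjusted p = 0.00121 and 0.00348), and the spermidine synthase gene SRM by -0.31 and -0.32 (limma adjusted p = 0.00386 and 0.00360). With equal FPKM sums their values against Parent were -0.26 and -0.17 and still passed (limma adjusted p = 0.00733 and 0.0398). SAT1, which acetylates polyamines for export and breakdown, rose from 71.0 ± 3.73 FPKM in Parent and 84.2 ± 2.1 in NC-1 to 168 ± 1.54 (SD, n = 2 each), a log2 difference of 1.23 and 0.99 (limma adjusted p = 5.88e-06 and 1.54e-05).

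Of 11 tested genes of glutamine metabolism, 6 were lower and 2 higher than in Parent, where 43.4% of all genes were called, 24.7% lower. In the comparison with NC-1, 5 were lower and 3 higher, where 39.6% of all genes were called, 21.2% lower. GLUL, which makes glutamine, had 76.2 ± 0.217 FPKM in Parent, 70.7 ± 0.123 in NC-1 and 42.5 ± 3.93 in miR-4711-5p cells (SD, n = 2 each), a log2 difference of -0.83 and -0.72 (limma adjusted p = 8.22e-05 and 0.000186). GLUD1, glutamate dehydrogenase, and GOT1, an aspartate aminotransferase, were lower by -0.63 and -0.39 than in Parent and by -0.56 and -0.31 than in NC-1 (limma adjusted p from 4.86e-05 to 0.00212). CTPS1, which uses glutamine to make CTP, rose by 0.20 and 0.49 (limma adjusted p = 0.00891 and 0.000189), the first of which was lost without miR-4711-5p 1 (0.0534) or miR-4711-5p 2 (0.0555).

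Of 24 tested genes that report the amino acid supply to mTORC1 at the lysosome, 4 were higher and 5 lower against Parent and 3 higher and 4 lower against NC-1. The shares of all genes called were 43.4% and 39.6%, so these counts do not set the list apart. SESN3, a relative of the leucine sensor SESN2, was lower by -0.70 and -1.0 (limma adjusted p = 0.000227 and 4.91e-05), and the Ragulator subunit LAMTOR2 by -0.41 and -0.27 (limma adjusted p = 0.00132 and 0.00863), the second of which was lost without miR-4711-5p 1 (0.0662). MTOR was lower by -0.25 and -0.21 (limma adjusted p = 0.00453 and 0.00940), and with equal FPKM sums its value against Parent was -0.11 (limma adjusted p = 0.0747). Its call against NC-1 was lost without miR-4711-5p 1 (limma adjusted p = 0.0632) or miR-4711-5p 2 (0.0525). MIOS and FLCN, which belong to regulators of the Rag GTPases, were higher by 0.32 and 0.27 than in Parent (limma adjusted p = 0.00521 and 0.0138) and by 0.39 and 0.26 than in NC-1 (limma adjusted p = 0.0024 and 0.0186). FLCN lost the call against Parent without Parent 2 (limma adjusted p = 0.0609) or miR-4711-5p 1 (0.101), and against NC-1 without NC-1 2 (0.0895) or miR-4711-5p 1 (0.123).

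**Figure D5:**
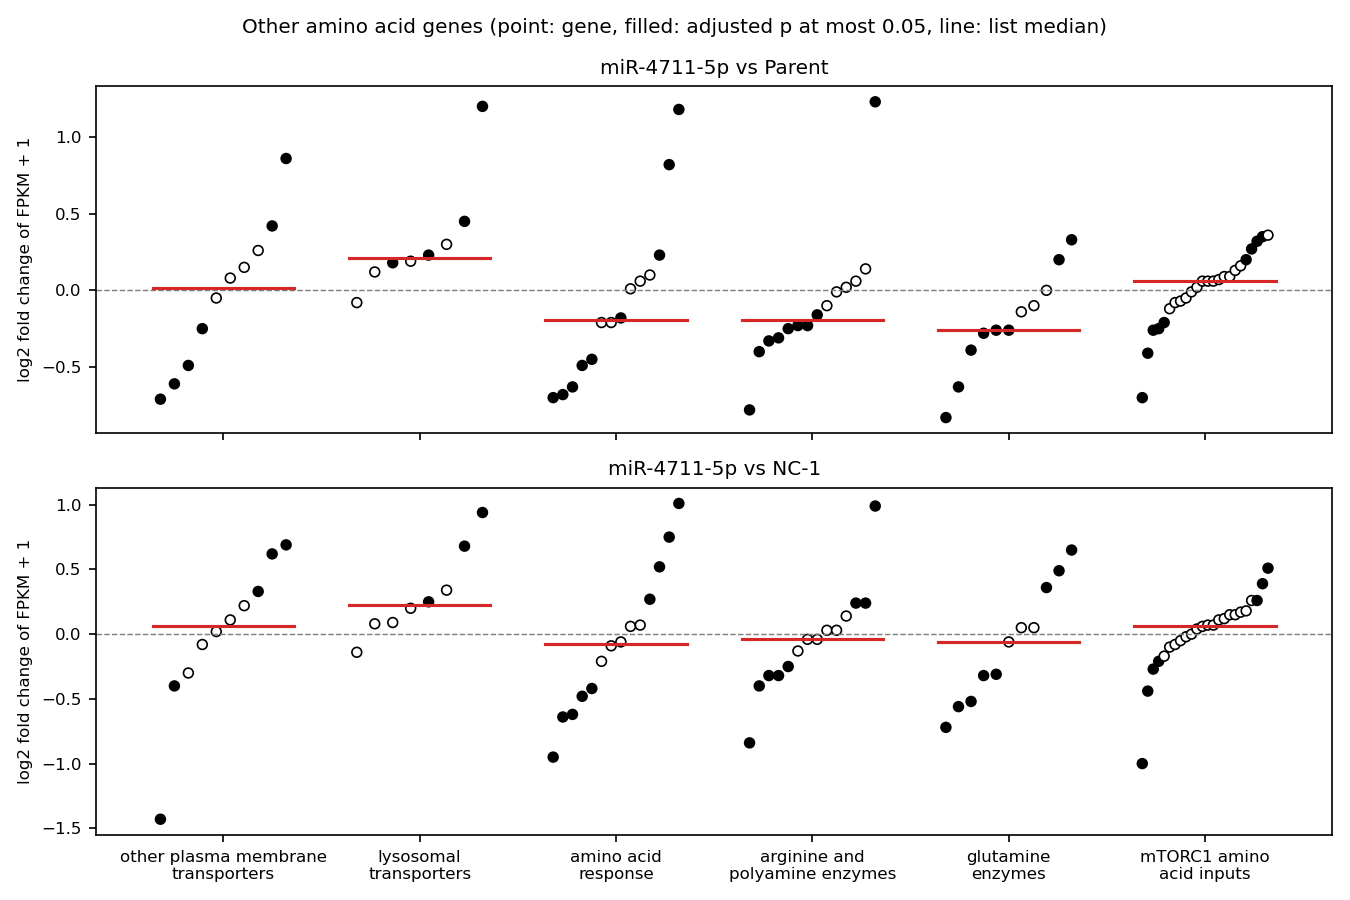
Each point is a tested gene of the 6 further lists, with its limma log2 fold change on log2(FPKM + 1) against Parent (upper panel) and NC-1 (lower panel), filled where the adjusted p is at most 0.05, and red lines are list medians. The medians against Parent run from -0.26 (glutamine enzymes) to 0.21 (lysosomal transporters), and no lysosomal gene is filled below 0.

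The 5 genes whose profile over the 6 libraries was most like that of SLC7A1, out of 6641 genes averaging 10 FPKM or more, were SLPI, SLC2A1, PCDH1, MMP1 and PERP. Likeness was measured as the root mean square difference of log2(FPKM + 1) after the Parent mean of each gene was subtracted, and was between 0.035 and 0.048. They encode a secreted protease inhibitor, a glucose transporter, a protocadherin, an interstitial collagenase and a desmosome protein. SLC2A1, the other nutrient carrier among them, had 147 and 145 FPKM in Parent, 154 and 151 in NC-1, and 80.1 and 79.9 with miR-4711-5p. The ratio of mean FPKM of the 5 genes to Parent lay between 0.537 and 0.561, beside 0.527 for SLC7A1. They were chosen for this likeness, so the values are a description.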

How the data were processed

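The authors made strand-specific mRNA libraries from BxPC-3 cells, sequenced them in single-end mode and mapped the reads to hg19. The deposited values are FPKM per gene symbol, 1 library per file, which the authors had normalized for exon length and library size. The submitters' processing notes name TopHat2 2.1.1, Bowtie2 2.3.5.1, SAMtools 1.2, Cufflinks 2.2.1 and Cuffdiff, while the methods of the paper name Cuffnorm and other versions of the mappers. The gene annotation, strand setting and library scaling are not given in the sources used here. FPKM do not keep read numbers, so depth was estimated only relative to Parent 1, from the most common ratio of values under 0.1 FPKM, on which 29.0% to 36.6% of these genes lay.

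Genes averaging 1 FPKM or more were tested on log2(FPKM + 1) with limma 3.58.1 in R 4.3.3 (lmFit, contrasts.fit, eBayes with a trend), with all 3 groups in the same fit (3 residual degrees of freedom), two-sided, Benjamini-Hochberg adjusted over all 12040 genes. The fit was tested on simulated data. No count model was applied to the FPKM. Python 3.11.15, numpy 2.4.6, pandas 2.3.3 and matplotlib 3.10.9 did the rest. Seed matches were searched in GENCODE v44 coding transcripts on GRCh37 (11126 tested symbols matched directly and 669 through an older symbol in RefSeq), and each printed stretch was checked against the genome.

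All 10 members were named. From each further list, genes past the threshold in the same direction against both controls were named, at most 3 per direction by size of change against Parent. ATF4, CDH5, PRSS1, COL1A1, the keratins and the other ductal genes were named after their values were seen. The members and lists were chosen with earlier results of these data known. The alternatives were another pseudocount (0.1), no filter, median-of-ratios rescaling, equal FPKM sums (added after seeing the data), 2-group fits, a replicate block, no variance trend, a 1.5-fold limit, and leaving out each library. Protein sequences were not used here.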

Additional observations from a re-analysis of the deposited data

How the results depend on the processing

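For the 10 members, 345 of 384 recomputed values kept their direction and their side of the threshold, 26 were no longer past it, 7 newly passed it and 6 changed sign. The 6 were of genes not called. With a library left out, SLC38A2 against Parent ran from -0.05 (without Parent 1; -0.02 without miR-4711-5p 1) to 0.07, SLC7A1 in NC-1 against Parent from -0.03 (without NC-1 1; -0.01 without Parent 2) to 0.07, and SLC3A2 in the latter comparison from -0.03 (without Parent 2; 0.00 without NC-1 2) to 0.06. Of the values of the other named genes, 745 of 780 were unaltered in this sense and 35 no longer passed, those of SLC7A8, SLC15A4, DDIT3, VLDLR, FLCN, LAMTOR2, MTOR and CTPS1, and the cause was not tested. A 1.5-fold limit left 2 members against Parent, 1 against NC-1 and 1 between NC-1 and Parent, and 1112, 976 and 298 of all genes, fewer by construction. Without a filter, 2165 genes differed between NC-1 and Parent in place of 3279. With a library left out, members called ran from 5 to 8, 4 to 6 and 4 to 5 in the same order, and all genes called from 3246 to 5185, 2887 to 4679 and 1457 to 2385. The lone library of an arm is then assumed to vary like the others. Counts of all genes fell by over 1.5 times without miR-4711-5p 1 (3246 against Parent and 2887 against NC-1) or miR-4711-5p 2 (3017 against NC-1), and between NC-1 and Parent without Parent 1 (1457), NC-1 1 (1680) or NC-1 2 (2133). Median-of-ratios factors were 1.006 or 1.007 in every library and moved no member call. Factors so alike could hardly move a call, so this setting does not check the scale of the libraries. Its values are among the 384. Also among them are fits that left out a library of the group outside the comparison. Those leave the log2 difference as it was and move only the pooled spread and the filter. SLC1A4 fell out of the filter in 2 settings. With equal FPKM sums 6, 5 and 5 members and 5789, 5008 and 3325 of all genes were called, in place of 7, 6 and 5 members and 5230, 4763 and 3279 genes.

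Replicate numbers pair nothing in the labels, and differences between replicates 1 and 2 correlated by 0.061, 0.00301 and -0.00892 between groups. With the replicate number as a block, 7, 6 and 5 members and 4983, 4564 and 2864 of all genes were called, and no member call was altered. FPKM without read counts limit what can be said of low genes such as SLC1A4.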
